A study of Mus musculus with 6 samples.

Results

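The hyaluronan genes studied here were the 3 synthases *Has1*, *Has2* and *Has3*, the matrix partners *Vcan*, *Hapln1* and *Tnfaip6*, the receptor *Cd44*, and the breakdown genes *Cemip*, *Cemip2* and *Hyal2*. They were chosen by name and found in the table by their Ensembl identifiers in the GENCODE mouse annotation, and they are 10 of its 56953 genes. Gene expression was measured by bulk RNA sequencing in 6 libraries of mouse embryonic fibroblasts (MEFs), 3 labelled WT and 3 labelled GαqKO. The GαqKO cells were made to lack Gαq and the related Gα11, the G protein subunits that couple many receptors to phospholipase C, and both kinds of cell came from an outside laboratory. All cells grew untreated in DMEM with 10% fetal bovine serum, penicillin and streptomycin. The embryos' age and strain, the way the alleles were made, and whether replicates were separate cultures are not given in the sources used here, so genotype and any other difference between the 2 cell populations cannot be told apart, and p-values measure the spread between these libraries, which may be technical.

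Hyaluronan is a long, unsulfated sugar chain of the extracellular matrix. Synthases in the plasma membrane build it from UDP-sugars and extrude it, and fibroblasts are among the main cells that make it. Outside the cell the chain carries versican, whose attachment link protein stabilises, receives heavy chains through the product of *Tnfaip6*, and is held at the cell surface by CD44. Hyaluronidases and related proteins cut it into fragments that cells take up.

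In the libraries labelled GαqKO the synthase transcripts changed in opposite directions. *Has2* was 9.24-fold lower and *Has1* was 4.50-fold lower, while *Has3* was 2.08-fold higher. *Vcan*, the large proteoglycan that binds hyaluronan, was 2.29-fold higher. *Cemip2* was 1.56-fold higher, *Cd44* and *Hyal2* were slightly lower, and *Hapln1*, *Tnfaip6* and *Cemip* did not pass the test (n = 3 libraries in each group). Values are normalised read counts, that is gene counts divided by 1 size factor per library. Fold changes on the log2 scale are differences of log2(normalised count + 1), tested with limma over all genes that reached 10 normalised counts in at least 3 libraries. A gene was called at an adjusted p under 0.05, and called past the fold where the log2 fold change was also over 1 or under -1.

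All 10 genes passed the filter on low values. Of these, 3 were called higher and 4 lower, against 31.8% and 34.1% of the 14096 genes tested. Past the fold, 2 were higher (*Has3* and *Vcan*) and 2 were lower (*Has1* and *Has2*), against 10.2% and 10.5% of all genes tested. The counts at the adjusted p are near the background, and with 10 genes the counts past the fold are not read as a result about the group. The median log2 fold change was -0.28 over the hyaluronan genes and -0.01 over all genes tested, and the medians of its absolute size were 0.67 and 0.39.

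**Figure D1:**
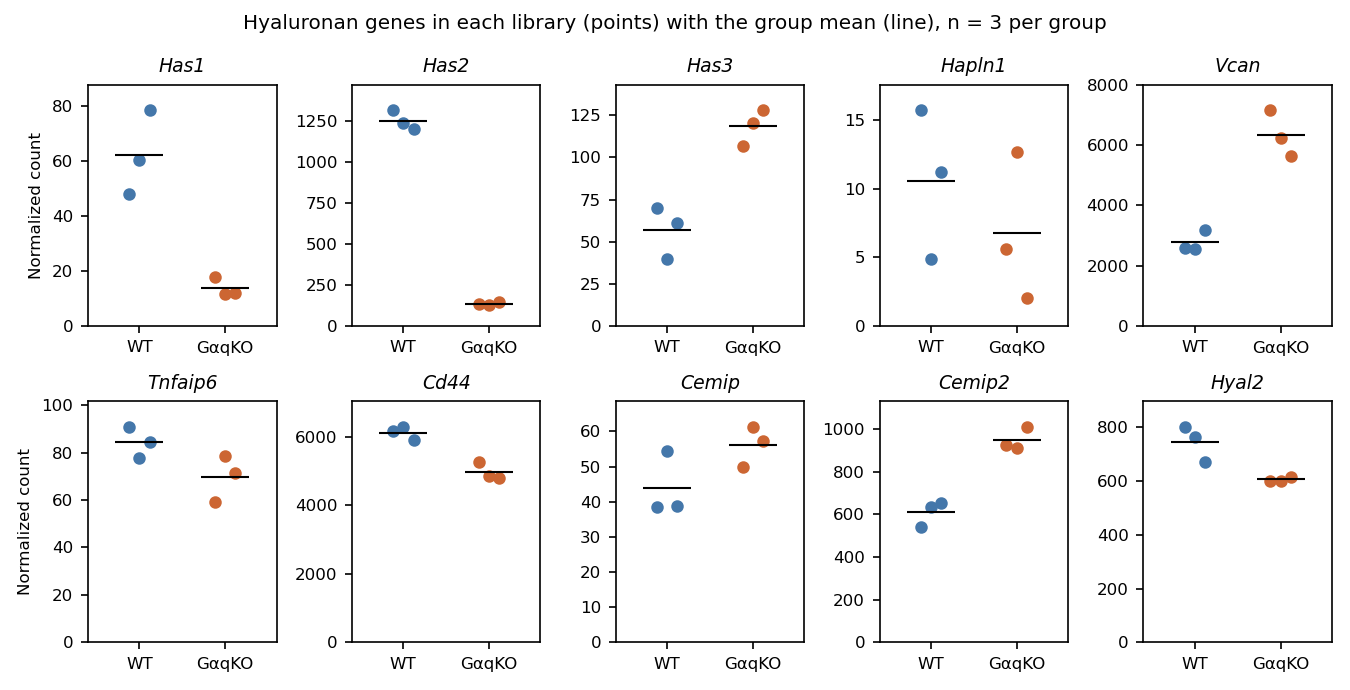
Normalised read counts of the 10 hyaluronan genes (vertical axes from 0, a scale of its own for each gene) in the 3 WT and 3 GαqKO libraries; points are libraries and bars are group means. The groups are apart for *Has1*, *Has2*, *Has3*, *Vcan*, *Cd44*, *Cemip2* and *Hyal2*, which are also the genes called, and overlap for *Hapln1*, *Tnfaip6* and *Cemip*. Of all genes tested, 65.8% were called in either direction, and the share with groups apart was not counted.

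The label was checked first with the genes it names. *Gna11*, which encodes Gα11, had 2141, 2179.9 and 2123 normalised counts in the WT libraries and 472.3, 463.7 and 418.9 in those labelled GαqKO (log2 fold change -2.25, limma adjusted p 9.16e-13). *Gnaq*, which encodes Gαq, was not lower: 1665, 1660.2 and 1747 against 1959.7, 1931 and 1888 (log2 fold change 0.19, limma adjusted p 0.00212). The *Gnaq* value counts RNA, while the paper reports by Western blot and immunofluorescence that its GαqKO MEFs lack the Gαq protein. The deleted exons are not given in the sources used here, so the *Gnaq* count alone neither bears out nor decides the label. The groups are therefore called the libraries labelled WT and labelled GαqKO, or WT and GαqKO for short. The columns summed to 11392429 to 11483486 normalised counts. Of 10 fibroblast markers, 9 were above the floor of 3 counts in every library and the summed level was 102763 to 109423 in WT and 75342 to 78745 in GαqKO. Of the 10, 4 were called higher and 6 lower, against 31.8% and 34.1% of all genes tested. The calls of *Pdgfrb* (higher) and *Col3a1* (lower) were lost under some alternatives, with adjusted p up to 0.0699 and 0.0685. Higher past the fold were *Thy1* (0 to 2.09 in WT and 59.0 to 76.5 in GαqKO), *Pdgfra* (17.5 to 21.9 and 2274 to 2356) and *S100a4* (mean 169.8 and 517.8), and lower past the fold was *Col1a1* (16671 and 5774), while *Vim*, *Col1a2*, *Col3a1*, *Fn1* and *Sparc* were lower short of the fold. The 6 epithelial markers summed to 515 to 540.9 in WT and 10.1 to 23.1 in GαqKO, led by *Cdh1* (mean 238.2 and 7.96) and *Krt14* (258.0 and 1.11), with *Krt5* at the floor throughout. The 5 endothelial markers summed to 14.6 to 26.1 and 17.8 to 39.3, the 6 blood cell and macrophage markers to 105.5 to 120.5 and 70.4 to 104.1 with *Itgam* at the floor, and the 4 muscle markers to 10.2 to 18.5 and 10.4 to 16.1 with *Myod1*, *Myog* and *Actc1* at the floor. The 5 chondrocyte markers summed to 45.8 to 61.2 and 15.1 to 19.7 with *Acan* at the floor, and the 4 markers of dividing cells to 13268 to 14328 and 16103 to 18007. Of the latter, *Mki67* was higher (mean 6427 and 9769), *Cdk1* (1523 and 1239) and *Ccnb1* (1134 and 1000.4) were lower, and *Top2a* was not called (4851 and 4899). The call of *Ccnb1* was also lost under some alternatives, with adjusted p up to 0.087. The part of these differences in the values below was not tested, and in bulk libraries fewer cells of a type and less RNA per cell cannot be told apart.

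The synthases were examined first. *Has2*, the main synthase of many fibroblasts, lies on the minus strand of chromosome 15 (56528342 to 56557999, ENSMUSG00000022367.8). It had 1314, 1239 and 1199 normalised counts in the WT libraries and 134.3, 124.9 and 147.0 in those labelled GαqKO. Every GαqKO library was below every WT library, and the mean fell from 1250.4 ± 58.2 to 135.4 ± 11.1 (SD, n = 3 each). The log2 fold change was -3.20 (SE 0.079, limma adjusted p 7.74e-13), and leaving out each library in turn gave -3.26 to -3.14. *Has2* shares its locus with the antisense long non-coding RNA *Has2os*, whose span holds 12.2% of the *Has2* exon bases. *Has2os*, named after its values were seen, had 52.2, 36.9 and 44.8 normalised counts in WT and 15.0, 12.7 and 10.1 in GαqKO (log2 fold change -1.75, limma adjusted p 7.59e-05). The library kit was stranded, but the strand setting of the counting is not given in the sources used here, and 51.7% of the *Has2os* exon bases lie within the *Has2* span, so reads of the 2 genes may have been assigned to either or to none.

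*Has1*, a synthase usually found at low levels, lies on the minus strand of chromosome 17 (18063585 to 18075467, ENSMUSG00000003665.8). Its normalised counts were 48.0, 60.2 and 78.4 in WT and 17.8, 11.6 and 12.1 in GαqKO. The groups did not overlap, and the means were 62.2 ± 15.3 and 13.8 ± 3.48 (SD, n = 3 each). The log2 fold change was -2.09 (SE 0.28, limma adjusted p 1.45e-05), between -2.27 and -1.91 when single libraries were left out. *Has3*, the synthase known for making shorter chains in some systems, lies on the plus strand of chromosome 8 (107596874 to 107611198, ENSMUSG00000031910.15). It had 70.0, 39.8 and 61.1 normalised counts in WT and 107.0, 120.2 and 127.9 in GαqKO. Here the GαqKO libraries were all above the WT libraries, with means of 57.0 ± 15.5 and 118.4 ± 10.5 (SD, n = 3 each). The log2 fold change was 1.08 (SE 0.20, limma adjusted p 0.000344). WT replicate 2 was the lowest of the 6 libraries, and without it the log2 fold change was 0.84, under the fold of 1 but with the same call at the adjusted p.

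The bases just before the start of the 3 synthases and of *Vcan* are shown because these are the 4 genes called past the fold. Each sequence is the 150 bases before the start of the gene's canonical GENCODE transcript on GRCm39, 5′ to 3′ on the gene's strand, at chr17:18075451-18075600 (minus) for *Has1*, chr15:56558000-56558149 (minus) for *Has2*, chr8:107597310-107597459 (plus) for *Has3* and chr13:89890815-89890964 (minus) for *Vcan*. Capitals mark matches on either strand to the TATA box (TATAAA), the CCAAT box (CCAAT), the GC box (GGGCGG), the AP-1 site (TGAGTCA read on one strand, its reverse complement on the other), the cyclic AMP response element (TGACGTCA) or its first letters alone (TGACG), and the TEAD site (GGAATG).
Has1: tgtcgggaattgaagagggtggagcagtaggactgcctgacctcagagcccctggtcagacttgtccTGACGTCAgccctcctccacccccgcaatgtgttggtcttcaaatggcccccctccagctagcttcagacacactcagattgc
Has2: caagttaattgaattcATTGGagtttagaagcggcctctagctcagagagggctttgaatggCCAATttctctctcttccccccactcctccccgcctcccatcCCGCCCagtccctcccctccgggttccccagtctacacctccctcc
Has3: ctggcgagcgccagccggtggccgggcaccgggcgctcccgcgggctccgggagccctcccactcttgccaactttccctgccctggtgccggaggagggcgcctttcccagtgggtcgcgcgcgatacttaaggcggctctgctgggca
Vcan: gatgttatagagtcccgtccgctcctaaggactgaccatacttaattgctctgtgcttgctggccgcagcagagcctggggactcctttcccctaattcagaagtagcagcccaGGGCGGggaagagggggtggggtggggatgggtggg
*Has2* held the CCAAT box at -134 (as its reverse complement) and -88, and the GC box GGGCGG (as its reverse complement) at -46, counting from -1 as the last base before the start. Of 21664 promoters of the same length, 27.8% held CCAAT and 32.6% held GGGCGG. *Has1* held the cyclic AMP response element TGACGTCA at -83, found in 1.47% of promoters. This palindrome contains the shorter TGACG on both strands, which 13.9% of promoters held. The last 17 bases of the *Has1* window lie in an exon of another of its transcripts. The *Has3* window lies inside the annotated span of *Has3*, which starts at 107596874, but in none of its exons. *Vcan* held GGGCGG at -36. *Has3* held none of the motifs, and its window was the richest of the 4 in G and C, at 73.3% with 16 CpG sites, against 57.3% in *Has2*, 58.0% in *Has1*, 59.3% in *Vcan* and a median of 55.3% over all promoters. TATAAA was held by 7.31% of promoters, the AP-1 site by 2.46% and the TEAD site GGAATG by 6.91%, and none of the 4 windows held these. A match is a run of letters only, and no match says only that these letters are not in this window.

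Levels of different genes were compared as normalised counts per kilobase of exon. On this scale the 3 synthases summed to 285, 268 and 268 in WT and to 47.7, 46.4 and 52.2 in GαqKO, which is 5.61-fold lower. The groups did not overlap, but an exact two-sided permutation test of 3 against 3 cannot go below p = 0.1, the value it gave. *Has2* made up 92.4%, 92.7% and 89.9% of the summed level in WT and 56.6%, 54.0% and 56.5% in GαqKO (exact permutation p = 0.1). *Has3* made up 3.84%, 2.32% and 3.57% in WT and 35.2%, 40.5% and 38.3% in GαqKO (exact permutation p = 0.1). *Has2* was therefore the highest synthase per length in every library, and in GαqKO *Has3* was the next. The share of *Has1* was 5.06% on average in WT and 6.31% in GαqKO (exact permutation p = 0.4). Level for level, *Has2* exceeded *Has3* by 24.1, 39.9 and 25.2 times in WT and by 1.61, 1.33 and 1.47 times in GαqKO.

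**Figure D2:**
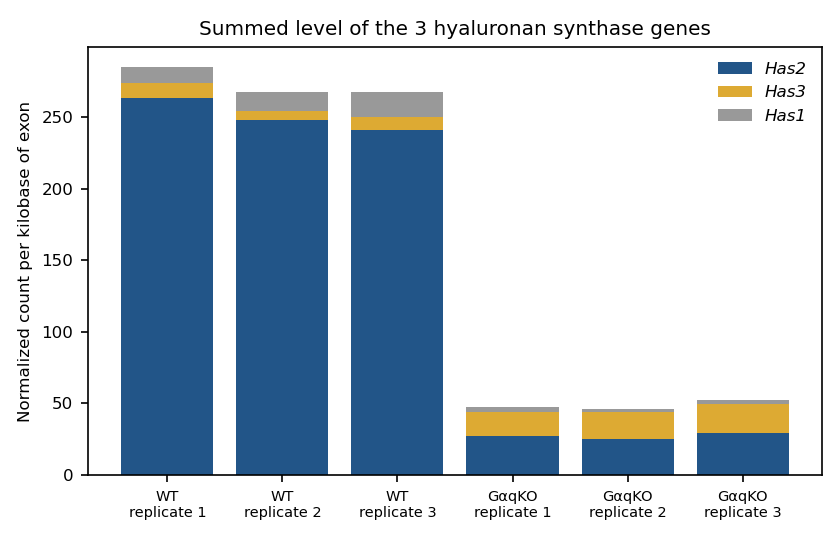
Summed level of the 3 hyaluronan synthases per library, as normalised counts per kilobase of exon, with *Has2* at the bottom of each bar and *Has3* and *Has1* above it. The sum is 268 to 285 in the WT libraries and 46.4 to 52.2 in those labelled GαqKO, where *Has3* takes 35.2% to 40.5%.

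Among the matrix partners, *Vcan* lies on the minus strand of chromosome 13 (89803431 to 89890814, ENSMUSG00000021614.17). It had 2577, 2563 and 3179.8 normalised counts in WT and 7152, 6240.2 and 5653 in GαqKO. The lowest GαqKO library was above the highest WT library, and the means were 2773 ± 352.2 and 6348 ± 754.9 (SD, n = 3 each). The log2 fold change was 1.20 (SE 0.087, limma adjusted p 3.51e-08), between 1.11 and 1.30 when single libraries were left out. Per kilobase, the ratio of *Vcan* to the summed synthases was 0.546, 0.578 and 0.719 in WT and 9.07, 8.13 and 6.55 in GαqKO. *Hapln1*, the link protein that fastens versican to hyaluronan, lies 43480 bases from *Vcan*. It was low in all libraries, with 15.7, 4.86 and 11.2 normalised counts in WT and 5.63, 12.7 and 2.01 in GαqKO. Its groups overlapped, and the log2 fold change of -0.71 had an SE of 0.58 (limma adjusted p 0.299). *Tnfaip6*, which encodes the secreted protein TSG-6 that moves heavy chains onto hyaluronan, had 90.8, 77.7 and 84.5 normalised counts in WT and 59.2, 78.6 and 71.5 in GαqKO. These groups overlapped too, with a log2 fold change of -0.28 (SE 0.17, limma adjusted p 0.164).

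*Cd44*, the main hyaluronan receptor of the cell surface, was the most abundant of the 10 genes per length in both groups. It had 6158, 6284 and 5913 normalised counts in WT and 5256, 4839 and 4799.5 in GαqKO. All GαqKO libraries were below all WT libraries, at 81.1% of the WT mean. The log2 fold change was small, at -0.30 (SE 0.046, limma adjusted p 5.44e-05). The ratio of *Cd44* to the summed synthases per kilobase was 3.19, 3.46 and 3.26 in WT and 16.3, 15.4 and 13.6 in GαqKO. As *Cd44* itself was lower, the higher ratio comes from the summed synthases, which were 5.61-fold lower.

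The breakdown genes moved by less than the fold of 2. *Cemip2*, a membrane protein related to *Cemip* and described as a cell-surface hyaluronidase, had 540.9, 633.4 and 650.4 normalised counts in WT and 924.9, 912.3 and 1009 in GαqKO. The GαqKO libraries were all higher, with a log2 fold change of 0.64 (SE 0.074, limma adjusted p 3.84e-06). *Hyal2*, a membrane-anchored hyaluronidase, had 799.8, 761.6 and 668.7 normalised counts in WT and 600.0, 600.1 and 615.3 in GαqKO. It was lower in each GαqKO library than in any WT library, with a log2 fold change of -0.29 (SE 0.070, limma adjusted p 0.00216), and 32.1% of its exon bases lie within the span of another gene, *Gm9917*. *Cemip*, which binds hyaluronan and is needed for its breakdown in fibroblasts, had 38.6, 54.4 and 38.7 normalised counts in WT and 49.8, 61.3 and 57.4 in GαqKO. Its groups overlapped, with a log2 fold change of 0.36 (SE 0.21, limma adjusted p 0.146). Summed per kilobase, the 3 breakdown genes were at 209, 211 and 193 in WT and 205, 205 and 216 in GαqKO (exact permutation p = 0.6), while the share of *Cemip2* in that sum was 26.7% on average in WT and 40.7% in GαqKO.

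**Figure D3:**
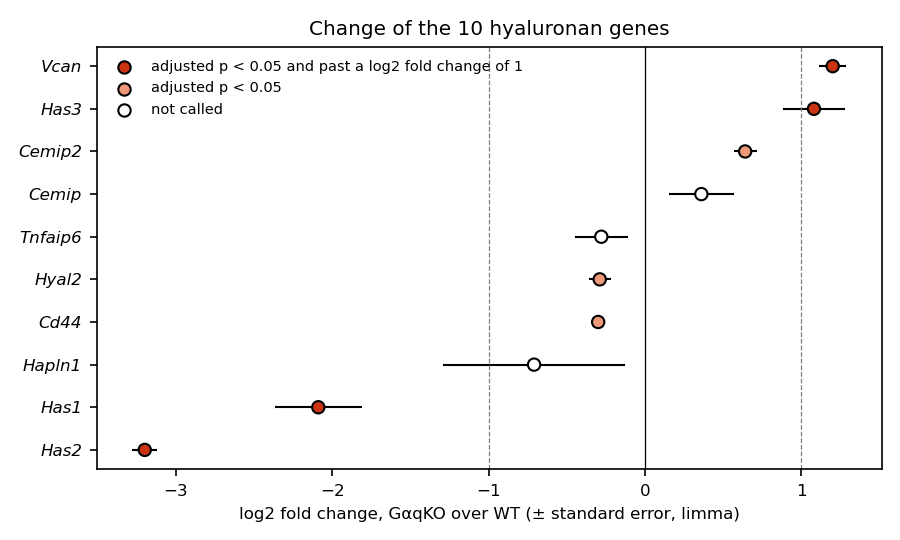
Log2 fold change of each hyaluronan gene, labelled GαqKO over WT, on the log2(normalised count + 1) scale (horizontal axis), with limma standard errors as bars (n = 3 libraries per group) and dashed lines at the fold of 1. *Has2* (-3.20) and *Has1* (-2.09) lie past the lower line, and *Vcan* (1.20) and *Has3* (1.08) past the upper line.

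The order of the levels per kilobase differed between the groups. In WT it ran from *Cd44* (903 ± 27.9, SD, n = 3) through *Has2* (251 ± 11.7), *Vcan* (168 ± 21.3) and *Hyal2* (146 ± 13.3) to *Cemip2* (54.3) and *Tnfaip6* (36.6). Below these came *Has1* (13.8 ± 3.38), *Has3* (8.92 ± 2.42), *Cemip* (3.58) and *Hapln1* (1.48). The WT ranges of *Vcan* and *Hyal2* overlapped, as did those of *Has1* and *Has3*. In GαqKO, *Cd44* (733 ± 37.3) was followed by *Vcan* (384 ± 45.7), *Hyal2* (119), *Cemip2* (84.8), *Tnfaip6* (30.3 ± 4.27), *Has2* (27.2 ± 2.23), *Has3* (18.5), *Cemip* (4.58), *Has1* (3.06) and *Hapln1* (0.952). There the ranges of *Tnfaip6* and *Has2* overlapped. Among all tested genes ranked per kilobase, 84.7% lay below *Has2* in WT and 34.1% in GαqKO. For *Vcan* these shares were 76.8% and 90.3%, for *Has3* 17.7% and 27.7%, and for *Has1* 22.7% and 8.8%.

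A wider list of 48 genes of the pathway held 24 that passed the filter, of which 8 were called higher, 11 lower and 5 not called, and past the fold 3 were higher and 5 lower. Over all genes tested 65.8% were called in either direction and 20.7% past the fold, so these counts are not read as a result about the list. Its median log2 fold change was -0.08, against -0.01 for all genes tested. *Adamts9*, one of the proteases that cleave versican, had the largest fitted log2 fold change of the list, at 4.84. It rose from 18.9 ± 2.17 to 565.3 ± 36.6 normalised counts, 30.0-fold (SD, n = 3 each, limma adjusted p 3.59e-12), and *Adamts1* rose 2.20-fold to 1183. *Adamts4* fell from 179.4 to 33.4 and *Adamts5* from 715.5 to 223.1 (limma adjusted p 9.33e-08 and 5.08e-10). Of the exon bases of *Adamts9* and *Adamts4*, 25.1% and 15.1% lie within the spans of other genes. The 4 tested proteases were called past the fold, 2 higher and 2 lower, against 10.2% and 10.5% of all genes tested, and nothing is read from so few genes about the group. Of 7 genes of precursor supply, 6 were tested, with 2 higher and 3 lower, against 31.8% and 34.1% of all genes tested. *Gfpt2*, an enzyme at the entry to UDP-N-acetylglucosamine synthesis, fell 2.91-fold, from 112.6 to 38.7 normalised counts (limma adjusted p 9.49e-05). The related *Gfpt1*, which had more counts, fell only 1.35-fold, from 1864 to 1381 (limma adjusted p 6.68e-06). Short of the fold, *Ugp2* was lower (638.8 to 476.1) and *Uap1* higher (648.0 to 867.9). *Ugdh*, which makes UDP-glucuronic acid, rose from 592.6 to 1021, short of the fold (log2 fold change 0.78, limma adjusted p 7.96e-08).

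Among 10 other receptors and binders, 7 were tested, with 3 higher and 2 lower, against 31.8% and 34.1% of all genes tested. The calls of *Tlr2* (limma adjusted p 0.00957, 0.00557 to 0.19 over the alternatives) and *Tlr4* (0.0425, 0.0293 to 0.228) were each lost under some alternatives. *Layn*, a membrane receptor for hyaluronan, rose from 80.4 to 445.5 normalised counts (limma adjusted p 4.8e-10). Of its exon bases, 54.5% lie within the span of another gene, but only 0.7% within exons of another gene. *Stab1*, a scavenger receptor that takes up hyaluronan, was at 11.5, 10.7 and 17.3 normalised counts in WT and at or under the floor of 3 counts per library in GαqKO, at least 4.39-fold lower. Of 6 other hyalectans and link proteins, 1 was tested, *Hapln4*, which fell from 779.8 to 244.7 (limma adjusted p 2.04e-10). Of its exon bases, 76.8% lie within the span of *Ncan* and 31.3% within exons of *Ncan*. None of 7 heavy chain donors and partners passed the filter. Of the 3 other breakdown enzymes tested, 1 was lower, against 34.1% of all genes tested. The 3 linkers of CD44 to the cytoskeleton were all called, where 65.8% of all genes tested were, with *Msn* lower (log2 fold change -0.61, limma adjusted p 1.16e-08), *Rdx* higher (0.19, adjusted p 0.000716) and *Ezr* lower (-0.18, adjusted p 0.0337, 0.00876 to 0.138 over the alternatives). *Hyal1*, *Hyal3*, *Spam1*, *Ptx3*, *Gnpnat1* and *Adamts15* were listed at 0 in all 6 libraries. Of the exon bases of *Hyal1*, *Hyal3*, *Ptx3* and *Gnpnat1*, 97.3% to 100% lie within the spans of other genes. Within exons of other genes the shares were 64.5% for *Hyal1*, 44.5% for *Hyal3*, 0.0% for *Ptx3* and 69.2% for *Gnpnat1*. Whether these values of 0 mean no expression was not tested.

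**Figure D4:**
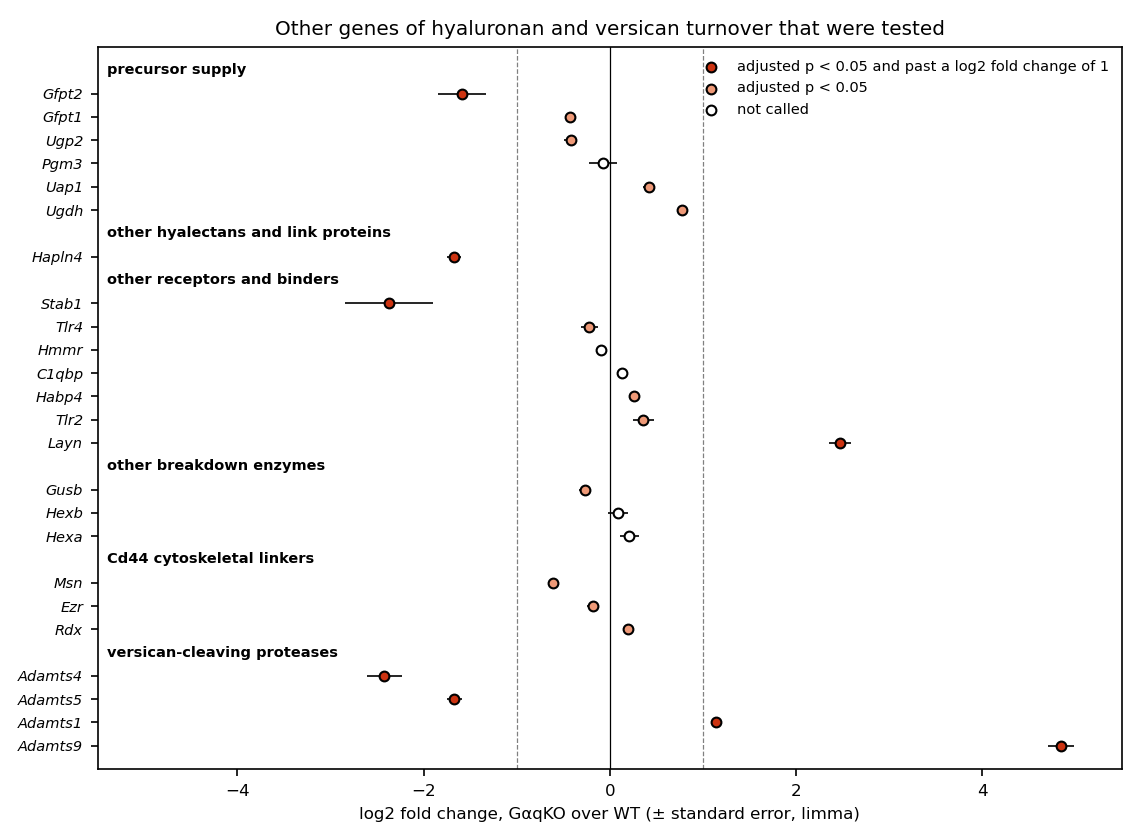
Log2 fold change, labelled GαqKO over WT, of the 24 tested genes of the wider hyaluronan list, with limma standard errors as bars (n = 3 libraries per group), grouped by role. *Adamts9* lies farthest to the right and *Stab1*, *Adamts4*, *Adamts5*, *Hapln4* and *Gfpt2* lie past the lower fold of 1.

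The genes whose pattern over the 6 libraries was most like that of *Has2* and *Has1* were found by the root mean square difference of centred log2(normalised count + 1) values among 9333 genes with a mean of at least 100 normalised counts. For *Has2* these were *Hoxb9* (0.068, mean 2710.2 in WT and 308.1 in GαqKO), *Cxcl12* (0.076, 6467 and 665.9) and *Cxxc5* (0.095, 304.5 and 30.1). For *Has1* they were *Rapgefl1* (0.12), *Ankrd44* (0.20) and *Magi3* (0.21). With 2 groups this measure favours genes whose change between the groups is of the same size. The log2 fold changes of *Hoxb9*, *Cxcl12* and *Cxxc5* were -3.13, -3.28 and -3.29, beside -3.20 for *Has2*. Shared control of these genes was not tested.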

How the data were processed

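The study measured poly-A RNA of WT and GαqKO MEFs in 3 libraries each, stated as biological replicates and grouped by the titles and genotype in the labels. The authors aligned paired-end reads to GRCm39 with Rbowtie2, assigned them to the genes of GENCODE release 32 by featureCounts, and used DESeq2 (versions and strand setting are not given in the sources used here). The deposited values are a signal, gene counts divided by 1 size factor per library by the authors. Every value above 0 in 5 libraries (100%) came out as a whole number of steps (within 0.01 reads), giving 9853000 to 12229175 reads. GαqKO replicate 3 had a step too near 1 to claim this, so edgeR 4.0.16 and DESeq2 1.42.0 were run on 5 libraries only, as alternatives. Floors of 3 counts cover counting error only.

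Symbols came from GENCODE release 39 (56310 of 56953 identifiers, 98.9%). The main test was limma 3.58.1 (R 4.3.3) with a trend on log2(normalised count + 1), for the 14096 genes that reached 10 normalised counts in 3 or more libraries. Its p-values were adjusted by Benjamini-Hochberg over those genes. It was also run on simulated data in which far fewer genes changed than here, so that run does not test the calls. The fits that left out 1 library applied the filter to at least as many libraries as the smaller group held. Levels were divided by the union of exon lengths. Promoter sequences were read from GRCm39 at GENCODE canonical starts. The hyaluronan genes and all lists were chosen with earlier results of these data known. Named genes were the 10 hyaluronan genes, *Gnaq* and *Gna11*, wider-list genes called past the fold (at most 12), the 3 genes most like each of the 2 hyaluronan genes with the largest changes, and genes a sentence turned on after their values were seen.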

Additional observations from a re-analysis of the deposited data

How the results depend on the processing

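The calls of the hyaluronan genes were recomputed under 15 alternatives (pseudocounts of 0.5 and 5, other filters, other scalings, no trend, count tests on 5 libraries, a replicate block, and each library left out). All 149 values obtained for the 10 genes kept their direction and their side of the adjusted p threshold, *Hapln1* giving none where 10 counts were required in every library. The number called higher past the fold was 1 to 2 with single libraries left out, the 1 coming without WT replicate 2, where *Has3* was at 0.84. Requiring 10 normalised counts in every library left 831 genes higher and 765 lower past the fold among all genes, against 1432 and 1486. Genes under 10 in any library, those silent in 1 group among them, are then not tested. With the longest transcript as length, *Has2* made up 53.1% of the summed synthase level in GαqKO, against 55.7%. The replicate numbers were only a shared number: deviations of same-numbered libraries correlated at -0.05, -0.15 and -0.06, and 0 libraries correlated best with their own number. With the replicate block 1421 genes were higher and 1478 lower past the fold, and 2 and 2 of the hyaluronan genes. In the wider list, the calls of *Tlr2*, *Tlr4* and *Ezr* were lost under some alternatives, and *C1qbp* and *Hexa*, not called, reached adjusted p of 0.00183 and 0.021 under others. At this depth the change of *Hapln1* was not detectable, with adjusted p of 0.0887 to 0.886 by limma, edgeR or DESeq2.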

Other observations

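The 4 genes past the fold were also set beside their surroundings. On chromosome 8, where *Has3* lies, the median log2 fold change of 803 tested genes was 0.29, and it was 0.16 over 586 genes on chromosome 15 (*Has2*), -0.01 over 687 genes on chromosome 17 (*Has1*) and -0.01 over 537 genes on chromosome 13 (*Vcan*). Within 1000000 bases of *Has3*, 8 of 29 tested protein-coding genes were called past the fold in either direction, against 20.7% of all genes tested, and the log2 fold changes of the 29 ran from -8.40 to 3.42. Around *Has1* 0 of 4 were, between -0.50 and 0.74, and around *Vcan* 1 of 4, *Edil3* at 2.53, which was named after its value was seen. No protein-coding gene within that distance of *Has2* passed the filter, so its count is 0 of 0. The part of these surroundings in the changes of the hyaluronan genes was not tested.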
